A study of Homo sapiens with 7 samples.

Results

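The major histocompatibility complex (MHC) is the gene-dense stretch of chromosome 6 that holds the genes for tissue-compatibility antigens. Its replication timing was read from the array probes that lie between 28500000 and 33500000 of chromosome 6 (genome build hg19) and are not control spots. The rule took 433 of the 169544 probes on chromosomes 1 to 22 and X, and all 433 were measured on each of the 6 arrays used. The median spacing of these probes was 10.8 kb and the largest gap was 72.9 kb.

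On each two-colour array of the series, nascent DNA from the early part of S phase was read against nascent DNA from the late part. Cells took up the thymidine analogue bromodeoxyuridine (BrdU) at 50 µM for 2 h, and 80000 fixed cells were then sorted by DNA content into an early and a late fraction. BrdU-containing DNA was pulled down with an antibody, amplified by whole genome amplification and given the dye Cy3 (early) or Cy5 (late). K562, an established line from a chronic myeloid leukaemia, was measured after a new cell sorting method (n = 1) and after the old one (n = 1). U2OS, an established osteosarcoma line, was measured as manual (n = 2) and automated (n = 2) samples, and the labels do not say which step was automated. No cells were engineered or treated beyond the BrdU pulse, as far as the labels say. The labels also do not say whether arrays came from separate cultures, so p-values cover only the spread between these arrays. No slide held both lines, so cell line and slide cannot be told apart. A further K562 array, labelled 44k and printed with fewer probes, held 209 of the probes. It entered no main test and its values are given as side readings.

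Each value is log2(early/late), the log2 ratio of the Cy3 to the Cy5 signal, centred on the array's median probe. A positive value means replication earlier than the median probe, and a negative value later. Within S phase, neighbouring origins fire at similar times, so that the genome is copied in large domains joined by transitions. Gene-rich, GC-rich chromatin usually replicates early and gene-poor, AT-rich chromatin late, and domains can differ between cell types. The MHC has long served as an example: its class III part, rich in housekeeping and complement genes, is known for early replication, its class II part for later replication, and the border between NOTCH4 and HLA-DRA for the switch between them.

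The region was divided by gene names on the array. Extended class I ran to the last MOG probe (87 probes, 28501217 to 29638957) and holds olfactory receptor, zinc finger and TRIM genes. Class I ran on to the last MICB probe (155 probes, 29647104 to 31478881), class III to the last BTNL2 probe (92 probes, 31490723 to 32369843), and class II to the last probe before COL11A2 (58 probes, 32377667 to 33125088). Extended class II was the remainder (41 probes, 33139023 to 33496994). The border region, from the first NOTCH4 probe to the HLA-DRA probe, held 19 probes over 232 kb and overlaps class III and class II. Exons, introns and untranslated parts were not assigned, because gene models of this build were not used here.

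A probe reads timing only where its own bases hybridise, so the probes on which the account turns are printed as the deposited tables list them, with each CpG in capitals. They run from extended class I, where the lines differed, through the border genes to the low stretch of class II and TAP2 beyond it. The strand is not given in the tables. Their hg19 positions follow the sequences.
TRIM27: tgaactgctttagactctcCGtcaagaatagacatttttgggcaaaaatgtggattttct
OR2B3: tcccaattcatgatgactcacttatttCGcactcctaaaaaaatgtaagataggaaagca
OR14J1: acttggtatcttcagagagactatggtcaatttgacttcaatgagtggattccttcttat
C6orf10: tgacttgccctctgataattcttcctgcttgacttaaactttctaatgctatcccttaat
BTNL2: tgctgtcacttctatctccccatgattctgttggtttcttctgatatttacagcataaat
HLA-DRA: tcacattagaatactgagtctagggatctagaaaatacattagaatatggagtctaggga
HLA-DRB1: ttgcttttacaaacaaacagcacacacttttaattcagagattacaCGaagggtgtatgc
TAP2: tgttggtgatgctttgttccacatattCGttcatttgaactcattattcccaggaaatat

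The TRIM27 probe lies at chr6:28876753-28876812, the OR2B3 probe at chr6:29055015-29055074 and the OR14J1 probe at chr6:29274445-29274504. The C6orf10 probe lies at chr6:32297536-32297595, the BTNL2 probe at chr6:32369784-32369843 and the HLA-DRA probe at chr6:32411957-32412016. The HLA-DRB1 probe lies at chr6:32551350-32551409 and the TAP2 probe at chr6:32789996-32790055. All 8 are AT-rich, with a GC content between 35.0% and 36.7%. The design kept probe composition nearly flat along the region: mean probe GC content ran from 36.0% in extended class I to 38.5% in extended class II, against 36.5% over all probes. A CpG was present in 27.6% of extended class I probes, 23.2% of class I, 44.6% of class III, 37.9% of class II and 48.8% of extended class II probes, against 33.9% of all probes.

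The MHC region replicated early as a whole in both lines. Its 50 windows of 100 kb averaged 1.68 and 0.95 above the rest of the genome on the new-sorting and old-sorting K562 arrays. In U2OS the excess was 1.07 and 0.96 (manual) and 1.05 and 1.07 (automated). The excess was therefore positive on 6 of 6 arrays, with a mean of 1.13 ± 0.27 (SD, n = 6). An exact two-sided sign-flip permutation test gave p = 0.03125, the smallest that 6 arrays allow. The mean was 0.65 with normexp background correction, 0.54 with no background correction, 0.66 with loess and 0.61 without dim probes, positive in each case. The lines did not separate in this average (exact permutation test, p = 0.667). The median window of the region stood at the 72.0 to 80.2 percentile of all windows of its array.

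Array brightness limits these values. The share of the region's probes that the scanner software called well above background in both channels was 53.6% and 67.3% on the K562 arrays, and in U2OS 51.4% and 35.3% (manual) and 93.3% and 93.5% (automated). It was 4.78% on the array labelled 44k. The early channel was the dimmer one on the old-sorting K562 array (71.5% of probes above background, against 78.5% in the late channel), and the late channel on the others. Where a late signal was at background, the software set it to a floor, which bounds how early a probe can read. An early signal set to a floor bounds how late a probe can read. Probes with a floor value in either channel made up 0.924% to 19.9% of the region's probes on the 6 arrays. The share was 56.9% on the array labelled 44k. Up to 35.9% of class III probes on an array carried a floor value in either channel, against up to 5.75% in extended class I. The part of these floor values in the levels of early sub-regions was not tested.

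**Figure D1:**
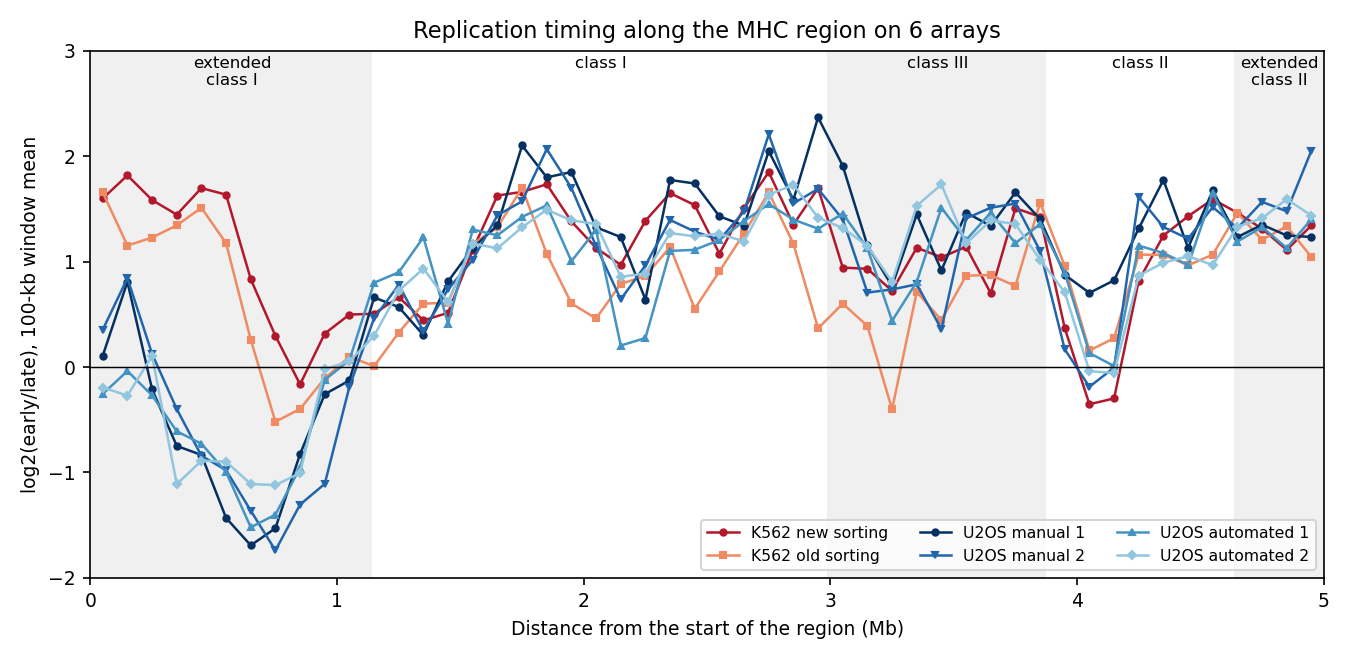
Mean log2(early/late) of each 100-kb window (vertical axis) against distance from the start of the region in Mb (horizontal axis), 1 line per array, with the 5 sub-regions marked by shading. Both K562 arrays lie above all 4 U2OS arrays in the first 0.9 Mb, from class I on nearly all window values are positive, and all 6 arrays dip inside class II.

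Of the 5 sub-regions, the lines differed most in extended class I, the part that begins with GPX5 and SCAND3 and ends with the olfactory receptor genes, GABBR1 (a GABA receptor subunit) and MOG (a myelin glycoprotein). On average it replicated earlier than the median probe in K562 and later than it in U2OS. Its 11 windows stood at the 46.8 to 93.3 percentile of all windows in K562 and at 26.6 to 59.3 in U2OS. The mean over its 87 probes was 0.96 in K562 after the new sorting method and 0.61 after the old one. In U2OS the manual arrays read −0.56 and −0.58 and the automated ones −0.54 and −0.56. The lines did not overlap, and the U2OS arrays lay close together. The array labelled 44k, which took no part in this comparison, read 0.94 over 28 probes. The difference was 1.35, and the exact two-sided permutation test gave p = 0.133, the smallest that 2 arrays against 4 allow (0.222 after Benjamini-Hochberg adjustment over 5 sub-regions). The difference was 0.66 with no background correction and 0.75 with normexp background correction.

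The same contrast was tested window by window, with limma fitted on all 24162 windows of the genome and p-values adjusted over all of them by the Benjamini-Hochberg method. In the MHC region 7 of 50 windows had an adjusted p under 0.05, against 21.5% of all windows of the genome. All 7 were earlier in K562 (9.37% of all windows were), and none was later in K562 (12.1% of all windows were). The 7 lay in extended class I, between 28500001 and 29300000, with differences of 1.34 to 2.48 and limma adjusted p-values of 0.000897 to 0.0225. At an unadjusted p under 0.05 there were 11 windows, against 32.9% of all windows. Of these, 9 were earlier in K562 in extended class I and 2 later in K562 in class III. The array labelled 44k read above every U2OS array in 7 of the 7 windows with an adjusted p under 0.05, at 0.70 to 2.31, on 1 to 3 probes per window. The share of windows called was below that of the genome, and the calls formed a block at the outer end of the region that was broken by 1 window. With normexp background correction 3 windows passed, all earlier in K562, against 9.9% of all windows. Without the new-sorting K562 array 8 passed, 6 of them earlier and 2 later in K562; the remaining K562 array is then assumed to vary like the U2OS arrays.

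The window with the largest difference, 29000001 to 29100000, holds OR2B3, an odorant receptor gene. It read 1.63 and 1.17 on the new-sorting and old-sorting K562 arrays and −1.43, −0.98, −0.997 and −0.90 on the U2OS arrays (manual 1, manual 2, automated 1 and automated 2, an order kept from here on). The lines differed by 2.48 (SE 0.29, limma adjusted p 0.00128). The window before it, 28900001 to 29000000, holds ZNF311, a zinc finger gene, and read 1.70 and 1.51 in K562 and −0.83, −0.84, −0.73 and −0.89 in U2OS. Its difference was 2.43 (SE 0.24, limma adjusted p 0.000897). In the window of TRIM27, which encodes a RING finger protein of the TRIM family, K562 read 1.45 and 1.34 and U2OS −0.75, −0.40, −0.61 and −1.11. That difference was 2.11 (SE 0.29, limma adjusted p 0.00209). In these windows every K562 array was above 0 and every U2OS array below 0.

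**Figure D2:**
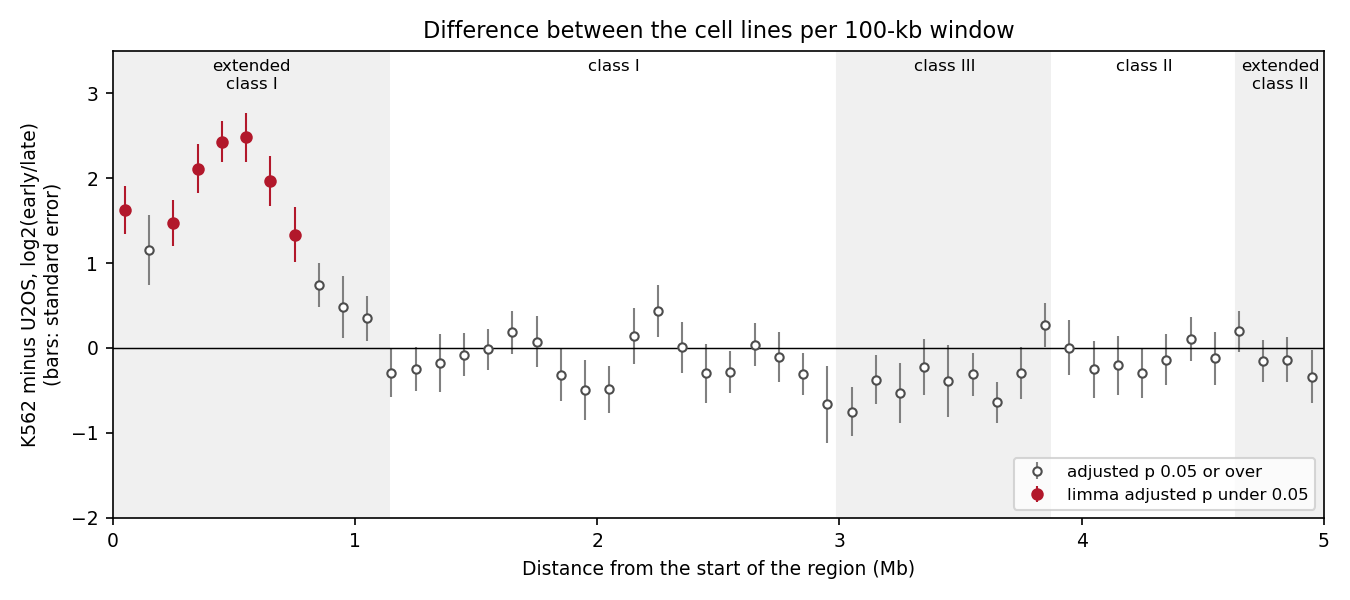
Difference between the mean of the K562 arrays and the mean of the U2OS arrays in each 100-kb window (vertical axis, log2 scale, bars are limma standard errors) against distance from the start of the region in Mb. The 7 windows with a limma adjusted p under 0.05 (filled) reach 2.48, and the 43 others (open) lie between −0.75 and 1.15.

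The timing profile of this stretch was not flat in either line. The start of the region, before TRIM27, was early in K562 and near the genome's median in U2OS. Over the first 19 probes (28501217 to 28755287) the K562 arrays averaged 1.66 and 1.38, and the U2OS arrays 0.27, 0.51, −0.20 and −0.12. Over the next 68 probes, to MOG, K562 averaged 0.76 and 0.39 and U2OS −0.79, −0.89, −0.64 and −0.68. The division between those probes is the one that best splits the mean U2OS profile of extended class I into 2 runs, and was chosen after the values were seen. When class I was included and each array divided into 3 runs, only manual 2 of the U2OS arrays had a division there. The difference between the lines was nearly the same before it (1.41) and after it (1.33).

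Both lines fell towards the olfactory receptor genes, which lie in the latest part of the region. From OR2B3 to OR2H1 (32 probes over 374.1 kb) the K562 arrays averaged 0.45 and −0.01 and the U2OS arrays −1.22, −1.36, −1.20 and −0.96. The latest U2OS window was that of OR14J1, 29200001 to 29300000, where U2OS read −1.53, −1.74, −1.40 and −1.12. This was the 26.6 percentile of all windows in U2OS, and K562 read 0.30 and −0.52 there. The latest K562 window was the next, with OR5V1, OR12D3 and OR11A1, at −0.16 and −0.40 (the 46.8 percentile). U2OS read −0.83, −1.31, −0.95 and −1.01 in it, and its limma adjusted p was 0.0871. After it the lines converged, and none of the later windows passed the test.

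Class I, which runs from HLA-F to MICB and holds the genes of the classical antigen-presenting molecules among many others, was early in both lines. In all 19 of its windows every array was positive. The sub-region means were 1.29 and 0.89 in K562 and 1.39, 1.27, 1.11 and 1.19 in U2OS, with 1.20 on the array labelled 44k. The lines overlapped, and the difference of −0.15 was not beyond the spread between arrays (exact permutation test, p = 0.533). Its sign turned with another normalization or without the old-sorting array.

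Within class I the first windows were lower than most of the later ones, a split chosen after the values were seen. The 4 windows before 30000000, with HLA-F and HCG9, ranged from 0.26 to 0.56 in K562 and from 0.55 to 0.74 in U2OS. The 15 windows after it ranged from 0.79 to 1.75 in K562 and from 0.69 to 1.86 in U2OS, so the U2OS ranges overlapped. When the profile of extended class I and class I was divided into 3 runs of probes, each fitted by its own mean, 3 of the 6 arrays placed a division just after the probe that ends at 30012813, in ZNRD1-AS1. These were the new-sorting K562, the manual 1 and the automated 2 array, and the other 3 arrays had none at that probe. The earliest window of the whole region was the same in both lines, 31200001 to 31300000, between the PSORS1C1 to HCG27 genes and MICA. It read 1.85 and 1.66 in K562 and 2.05, 2.21, 1.54 and 1.63 in U2OS, the 96.7 and 96.9 percentile.

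**Figure D3:**
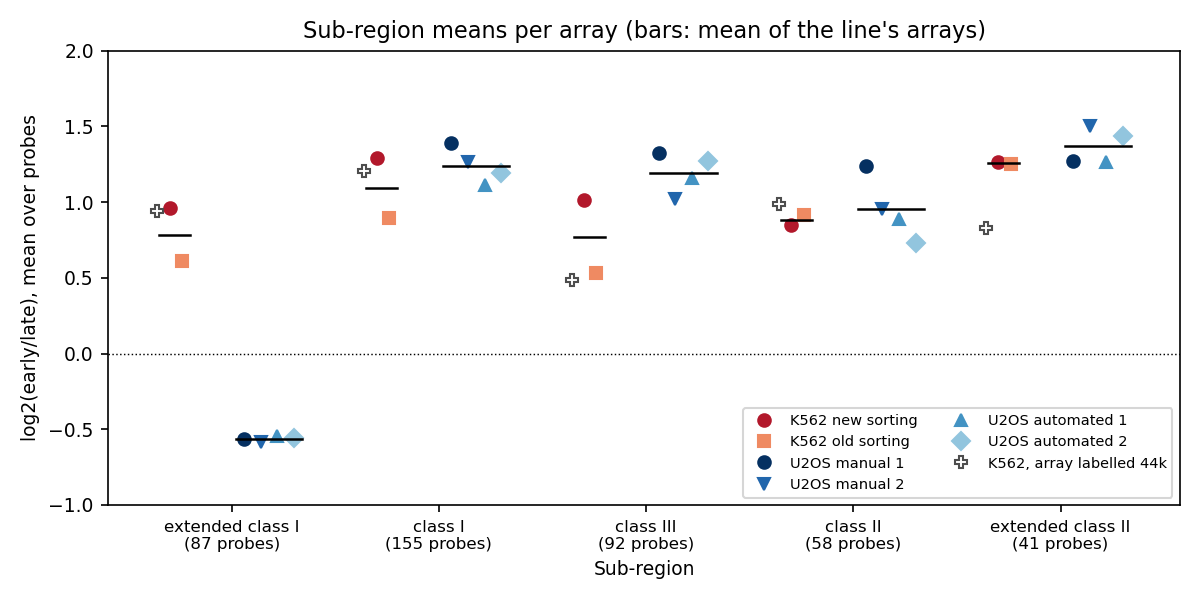
Mean log2(early/late) over the probes of each sub-region (vertical axis), 1 point per array, with a bar at the mean of each line's arrays and an open cross for the K562 array labelled 44k. In extended class I the K562 arrays stand at 0.61 and 0.96 and the U2OS arrays between −0.58 and −0.54, while in the other 4 sub-regions every point is above 0.

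Class III, the most gene-dense part, with the TNF, complement and heat shock genes, was early in both lines and later in K562 than in U2OS on average. Its means were 1.01 and 0.53 in K562 and 1.32, 1.02, 1.16 and 1.27 in U2OS. The array labelled 44k read 0.48. Both K562 arrays were below every U2OS array, by a small margin for the new-sorting array. The difference was −0.42 (exact permutation test, p = 0.133, the smallest possible; 0.222 adjusted), and none of the 9 class III windows passed the genome-wide test. It was −0.18 with normexp, −0.17 with no background correction and −0.18 with loess. The lines overlapped under these settings (exact permutation tests, p = 0.4, 0.4 and 0.533). They also overlapped with mean centring (exact permutation test, p = 0.533) and without dim probes (p = 0.667). Without the old-sorting array the difference was −0.18, and without the new-sorting array −0.66. Of the 50 windows of the region, 19 had lines that did not overlap, against 41.3% of all windows, and 12 of these had the higher values in K562. Extended class I held 10 of those 12, and class III held 3 of the 7 with the lower values in K562.

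The lowest class III difference was in the window of the TNF cluster, 31500001 to 31600000. K562 read 0.94 and 0.60 there and U2OS 1.91, 1.40, 1.46 and 1.32. The difference was −0.75 and did not pass the test (SE 0.28, limma adjusted p 0.105). The heat shock gene window, 31700001 to 31800000, was the latest of class III in K562, where the new-sorting array read 0.72 and the old-sorting one −0.40. U2OS read 0.77, 0.74, 0.44 and 0.81 in it. The K562 arrays thus differed from each other by more than the lines did.

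The border region between NOTCH4, which encodes a Notch receptor, and HLA-DRA, which encodes the nearly invariant alpha chain of HLA-DR, replicated early on every array. Its 19 probes averaged 1.30 and 1.09 in K562 and 1.58, 1.20, 1.19 and 1.09 in U2OS, with 1.06 on the array labelled 44k over 5 probes. The lines overlapped, with a difference of −0.07 (exact permutation test, p = 1).

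Each of the 7 border genes with a probe averaged above 0 in both lines, though GPSM3 (manual 1, −0.13), NOTCH4 (old sorting, −0.02) and HLA-DRA (manual 2) were below 0 on 1 array each. AGER, the receptor for advanced glycation end products, averaged 1.15 in K562 and 1.52 in U2OS. PBX2, a homeobox gene, averaged 1.93 and 2.44, and GPSM3, a G-protein signalling modulator, 1.12 and 1.02. NOTCH4 was the latest of the group at 0.12 and 0.49, on 2 probes that differed widely: one averaged 1.004 and 1.66 and the other −0.77 and −0.67. C6orf10 (now TSBP1), with 8 probes, read 1.30 and 0.96 in K562 and 1.64, 1.29, 1.34 and 1.10 in U2OS. BTNL2, a butyrophilin-like immune regulator, read 0.77 and 0.85 in K562 and 0.55, 1.12, 0.93 and 0.87 in U2OS. HLA-DRA read 0.66 and 1.45 in K562 and 1.60, −0.13, 1.77 and 0.56 in U2OS. In no border gene did the arrays of the lines separate, while they did in 33.4% of all named genes.

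Class II as a whole was not later than class III beyond the spread between arrays. Class II averaged 0.85 and 0.91 in K562 and 1.24, 0.95, 0.89 and 0.73 in U2OS. Class III minus class II was 0.16 and −0.38 in K562 and 0.08, 0.07, 0.27 and 0.54 in U2OS. The step was positive on 5 of 6 arrays, with a mean of 0.12 ± 0.30 (SD, n = 6; exact two-sided sign-flip permutation test, p = 0.375). The step averaged −0.11 ± 0.39 in K562 (SD, n = 2). In U2OS it averaged 0.24 ± 0.22 (SD, n = 4), and the lines' difference had an exact permutation p of 0.4. The sign of the mean step turned under several other settings.

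A single best division of class III and class II into 2 runs fell at different places on different arrays. It lay at 32811920 and 31815761 in K562 and at 31556614, 32696035, 31633743 and 32312103 in U2OS. Those of the old-sorting K562, manual 1 and automated 1 arrays lay in class III before the border region. Those of the new-sorting K562 and manual 2 arrays lay in class II beyond it, and that of the automated 2 array lay within it. The order of the runs also differed. The run before the division was the earlier one on manual 1, automated 1 and automated 2 (2.09 against 1.23, 1.53 against 0.99 and 1.29 against 0.74). It was the later one on the new-sorting and old-sorting K562 arrays and on manual 2 (0.83 against 1.48, 0.17 against 0.88 and 0.85 against 1.44).

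On the mean of each line, the lowest windows of class II lay in 1 stretch. With 2 divisions in place of 1, the new-sorting K562 array and both automated U2OS arrays gave the same low middle run, 17 probes from 32480027 to 32713165 (233.1 kb). The manual 2 array gave nearly the same run, 32480027 to 32688989. On the old-sorting array the low run lay in class III instead (31720807 to 31804641, MSH5 to C6orf48), and the manual 1 array gave a run over most of both sub-regions. The shared run spans HLA-DRB5, HLA-DRB6 and HLA-DRB1, genes of the polymorphic beta chains of HLA-DR, and ends in HLA-DQA2. It was found in these values and has no test.

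Over this run the arrays averaged −0.33 and 0.40 in K562 and 0.75, 0.00, 0.09 and 0.01 in U2OS. The flank of up to 200 kb before it, from C6orf10 to HLA-DRA and beyond (14 probes), averaged 1.27 and 1.35 in K562 and 1.42, 1.10, 1.32 and 0.99 in U2OS. The flank after it, from HLA-DQB2 through TAP1 to HLA-DMB (18 probes), averaged 1.22 and 1.05 in K562 and 1.61, 1.42, 1.18 and 1.06 in U2OS. The run was below both flanks on every array. The run minus the mean of its flanks was −1.10 ± 0.30 (SD, n = 6), from −1.58 on the new-sorting to −0.77 on the manual 1 array. It was −0.57 with no background correction, −0.70 with normexp and −0.72 with loess. The array labelled 44k, which was not used to find the run, read 0.27 over 6 probes in it, 1.85 over 3 probes before it and 0.84 over 11 probes after it.

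On the mean of each line, the dip went from clearly early to near the median of the genome. The level reached differed between arrays, from −0.33 on the new-sorting K562 array to 0.75 on the U2OS manual 1 array. The window 32500001 to 32600000 stood at the 51.1 percentile in K562 and the 54.9 percentile in U2OS, and the window after it at 52.5 and 55.9. The window 32300001 to 32400000, around BTNL2, stood at 88.8 and 80.5. Mean probe GC content was 36.8% in the run, 37.6% before and 37.4% after it. Probes well above background in both channels made up 41.2% to 88.2% of the run per array, 35.7% to 100% before it and 22.2% to 100% after it.

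**Figure D4:**
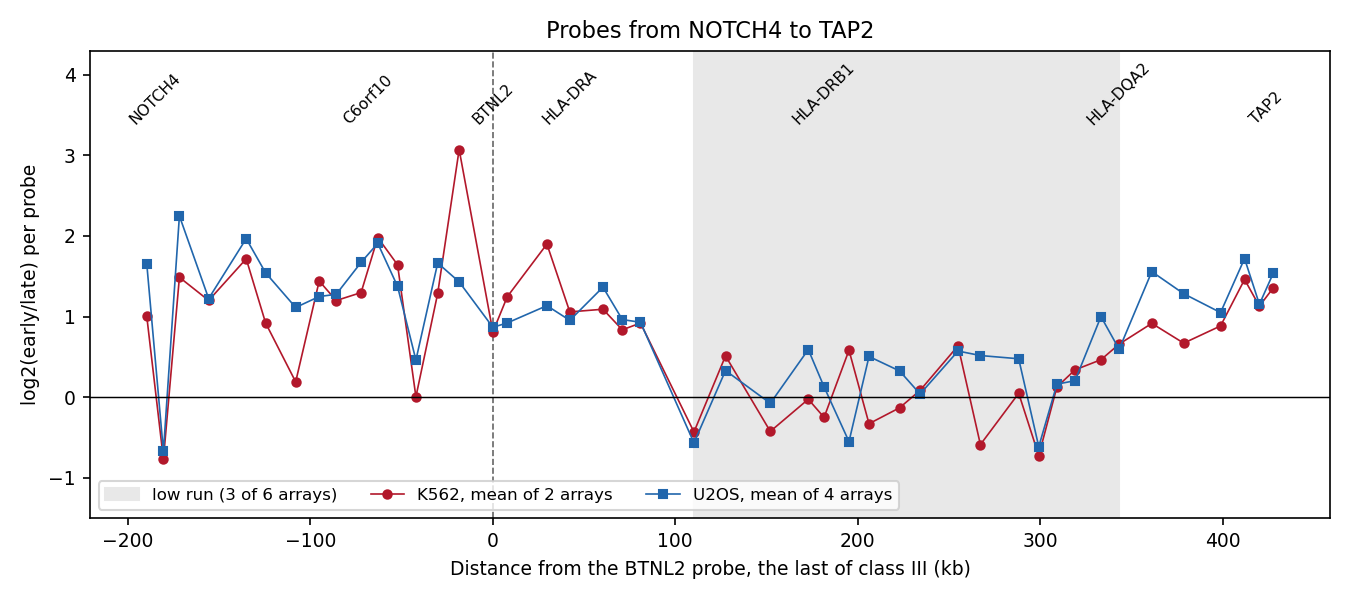
log2(early/late) of single probes from NOTCH4 to TAP2 (vertical axis) against distance from the BTNL2 probe in kb, as the mean of 2 K562 arrays and of 4 U2OS arrays, with the low run shaded. Both lines pass BTNL2 at 0.81 and 0.87 without a step, drop at about 110 kb beyond it, and are back above 0.9 in both lines from HLA-DOB on, past the run.

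HLA-DRB1, in the low run, read −0.19 and −0.32 in K562 and −0.43, 0.17, −0.08 and 0.84 in U2OS. HLA-DRB5 read 0.60 and 0.42 in K562 and 0.79, −0.39, 0.31 and 0.61 in U2OS. The DRB genes have near-identical copies whose number differs between chromosomes, so the probes of these genes may also take up DNA of a related copy. Beyond the run the HLA class II genes were early again. HLA-DOB, which encodes a chain of the peptide-loading modulator HLA-DO, read 1.43 and 1.49 in K562 and 1.84, 1.75, 2.003 and 1.28 in U2OS. HLA-DOA, the gene of its partner chain, read lower on its 2 probes, at 0.54 and 0.31 in K562 and 0.24, 0.65, 0.32 and 0.63 in U2OS. Of 13 HLA class II genes listed, 11 had a named probe, and 10 averaged above 0 in K562 and 11 in U2OS. HLA-DRB1 was the exception in K562. No gene of this list had lines that did not overlap, against 33.4% of all named genes.

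The antigen-processing genes lie in class II just past the low run, except TAPBP in extended class II. All 5 averaged above 0 in both lines, with a median of 1.24 in K562 and 1.42 in U2OS. TAP2, a subunit of the peptide transporter, read 1.02 and 1.47 in K562 and 1.76, 1.81, 0.72 and 1.10 in U2OS. TAP1, the other subunit, read 1.09 and 0.60 in K562 and 2.49, 1.28, 1.44 and 1.88 in U2OS. It was the only gene of the list whose lines did not overlap, against 33.4% of all named genes. PSMB8 and PSMB9, immunoproteasome subunits, averaged 0.69 and 1.81 in K562 and 0.63 and 1.42 in U2OS.

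Averaged over each line's arrays, extended class II had the highest mean of the 5 sub-regions in both lines. It averaged 1.26 and 1.25 in K562 and 1.27, 1.51, 1.27 and 1.44 in U2OS, with 0.83 on the array labelled 44k. Class I was higher on the new-sorting K562 array (1.29), and class I (1.39) and class III (1.32) on manual 1. On the array labelled 44k, class I (1.20) and class II (0.99) were higher. Up to 31.7% of extended class II probes on an array carried a floor value in either channel. The K562 arrays were just below every U2OS array, with a difference of −0.11 (exact permutation test, p = 0.133, the smallest possible, and 0.222 adjusted). The lines overlapped with normexp, no background correction, loess, scaling to equal spread and medians over probes (exact permutation tests, p = 0.4 to 0.8). With mean centring the difference was −0.0064. Of the 7 listed genes, 6 averaged above 0 in K562 and 7 in U2OS. COL11A2, a fibrillar collagen gene, read 1.31 and 1.10 in K562 and −0.31, 0.53, 1.61 and 1.39 in U2OS. DAXX, a histone chaperone gene, was the exception in K562, at 0.11 and −0.30, against 0.38, 0.47, 0.28 and 0.73 in U2OS.

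Counted by gene, the same probes followed this order. Of 59 listed genes with a named probe, 35 were above 0 on all 6 arrays. No such share of all named genes is given, so this count is not a result about these genes. The lines did not overlap in 12 of the 59, against 33.4% of all named genes on the arrays, and 7 of the 12 were higher in K562. Most genes had 1 or 2 probes, so a gene's value is that of a few short stretches, and no test was made per gene.

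The olfactory receptor list, which also counted the receptor gene MAS1L, had a median of −0.10 in K562 and −1.09 in U2OS over 7 genes. Its lines did not overlap in 5 genes, against 33.4% of all named genes, and all 5 were higher in K562. OR2B3 stood out in K562, at 1.71 and 1.29, against −0.63, −1.12, −1.47 and −1.13 in U2OS. OR2H1 read 0.05 and −0.03 in K562 and −0.31, −1.5002, −1.02 and −0.52 in U2OS. OR5V1 was below 0 on every array, at −0.47 and −0.31 in K562 and −1.45, −1.47, −0.49 and −1.20 in U2OS. OR14J1 read 0.40 and −0.27 in K562 and −0.85, −1.68, −1.35 and −1.06 in U2OS. MAS1L, further on, had no such order and averaged −0.14 in K562 and 0.66 in U2OS.

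The zinc finger and TRIM genes fell into those of extended class I and those of class I. TRIM27 read 1.42 and 1.62 in K562 and −0.65, −0.36, −0.59 and −1.29 in U2OS, and ZNF311 averaged 1.67 and −0.99. The other 7, from TRIM31 to TRIM39-RPP21 in class I, averaged above 0 in both lines. TRIM31 read 1.27 and 1.59 in K562 and 1.38, −0.03, 2.06 and 1.41 in U2OS. TRIM26 was above 1.5 on every array. The list's lines did not overlap in 2 of 9 genes, TRIM27 and ZNF311, against 33.4% of all named genes.

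**Figure D5:**
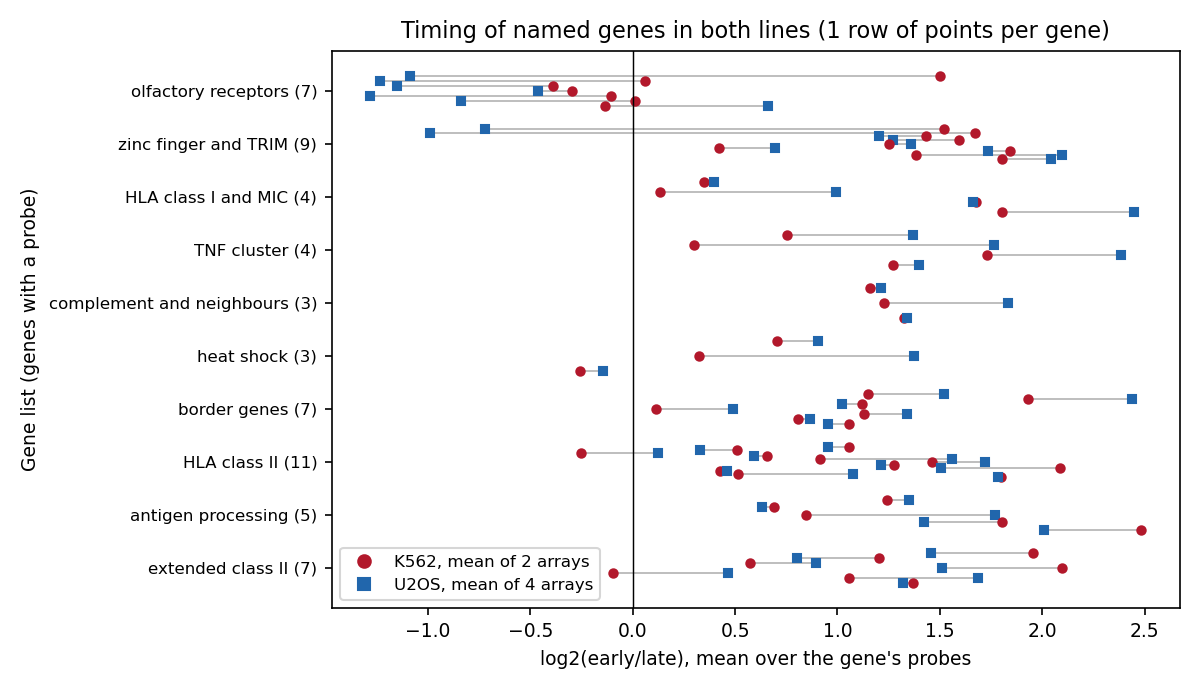
Mean log2(early/late) over a gene's probes (horizontal axis) for each gene of the 10 lists, with K562 (mean of 2 arrays) and U2OS (mean of 4 arrays) joined by a line. The lines are long, with U2OS to the left, for most olfactory receptor genes and for TRIM27 and ZNF311, and in most other lists both points lie above 0.

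Of the HLA class I and MIC genes, 4 of 8 had a probe under their own name. All 4 averaged above 0 in both lines, but HLA-E, on 1 probe, was above 0 on only 3 of the 6 arrays. It read 0.63 and −0.36 in K562 and −0.14, −0.31, 2.89 and 1.53 in U2OS. HLA-F read 0.46 and 0.24 in K562 and 0.09, 0.24, 0.87 and 0.38 in U2OS. MICA, a stress-induced ligand of a natural killer cell receptor, was earlier, at 1.65 and 1.70 in K562 and 1.29, 1.73, 2.13 and 1.48 in U2OS.

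In class III, the 4 TNF cluster genes with a probe had a median of 1.01 in K562 and 1.58 in U2OS, and none averaged higher in K562. TNF, the gene of tumour necrosis factor, read 0.47 and 0.13 in K562 and 2.43, 1.69, 1.99 and 0.95 in U2OS. LTA, its neighbour lymphotoxin alpha, read 0.63 and 0.88 in K562 and 2.28, 1.16, 0.99 and 1.05 in U2OS. In these 2 genes of the 4 the lines did not overlap, against 33.4% of all named genes. The complement gene C2 read 1.14 and 1.18 in K562 and 1.37, 0.15, 1.38 and 1.96 in U2OS. TNXB, a tenascin gene with 5 probes, read 1.29 and 1.37 in K562 and 1.78, 1.41, 1.01 and 1.17 in U2OS. Of the 3 HSPA1 genes, which encode heat shock proteins, HSPA1A read 1.08 and −0.43 in K562 and 1.39, 1.24, 1.13 and 1.74 in U2OS. HSPA1L read 1.69 and −0.28 in K562 and 2.70, 0.74, −0.21 and 0.39 in U2OS. HSPA1B, on 1 probe, averaged below 0 in both lines, at −0.26 in K562 and −0.15 in U2OS. These genes are close copies of each other.

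Handling was compared in the same windows on the 4 U2OS arrays. Between automated and manual U2OS arrays, 1 of 50 windows had a limma adjusted p under 0.05, against 7.85% of all windows of the genome. At an unadjusted p under 0.05 there were 6, against 27.9% of all windows. The window, 28600001 to 28700000, read 0.81 and 0.84 after manual and −0.04 and −0.27 after automated handling. Automated minus manual was −0.98 (SE 0.23, limma adjusted p 0.0371). It lies among the windows in which the lines differed, and its own line difference of 1.15 did not pass (limma adjusted p 0.09). The count moved with the array left out: 0 windows passed without automated 1 or without automated 2, 4 without manual 1 and 6 without manual 2. With normexp 14 windows passed, 12 of them earlier on the automated arrays, against 61.2% of all windows. With loess 17 passed, 16 of them earlier on the automated arrays, against 61.1% of all windows. The window called with the processed signals was later on the automated arrays. In the 7 windows called between the lines, automated minus manual lay between −0.46 and 0.37. Both manual arrays shared a slide, so handling and slide cannot be told apart.

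Across the 50 windows, Pearson's r was 0.884 to 0.941 over the 6 pairs of U2OS arrays, 0.734 for the K562 pair and 0.296 to 0.523 over the 8 pairs of different lines. Over the 43 windows that were not called, r between the lines was 0.569 to 0.800, against 0.695 for the K562 pair and 0.764 to 0.881 within U2OS. Those 43 were left by dropping windows called between the lines on these same arrays. A higher r between the lines was therefore largely built in. These correlations run across neighbouring windows that share arrays and domains, and are given as a description.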

How the data were processed

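The deposited files hold spot intensity per channel, written by Agilent Feature Extraction 11.5.1.1 per the file headers (the submitters' processing notes name version 9.1). The intensity columns used were the processed signals, which per the file headers are background-subtracted, with a floor for dim spots, and scaled by 1 factor per channel and array. No dye swap was made. An earlier processing used normexp with offset 50, which is an alternative here. Control spots and non-uniform or population outlier spots were left out (112 to 673 per array), and repeated probes were averaged. Probe names and positions were the deposited ones. Of 151 gene names in the region, 129 were current RefSeq symbols and 12 older ones.

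Windows of 100 kb needed 3 probes on every array. They were tested with limma 3.58.1 (lmFit and eBayes) in R 4.3.3 over all windows, which was tested on simulated data. Sub-region values were compared by exact permutation tests in Python 3.11.15 (scipy 1.17.1). Runs needed 5 probes. Members, lists and rules were chosen with earlier results of these data known. Named were the 3 called windows with the largest difference, the earliest and latest window per line, the border genes and the 2 genes of each other list with most probes. The values of 1 such gene are not reported here. Other genes with values (OR2B3, OR14J1, MAS1L, ZNF311, TRIM26, HLA-E, HSPA1B, HLA-DRB1, HLA-DOB, PSMB8, PSMB9, DAXX) were chosen after their values were seen. So were the windows of the TNF and heat shock genes, of BTNL2 and of the low run. The number of arrays limits the precision.

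The alternatives were normexp with offset 50, no background correction, loess, no dim probes, no saturated spots, scaling to equal median absolute deviation, mean centring, windows of 50 and 250 kb, 5 probes per window, medians, handling as a covariate, a difference of at least 1, a replicate block, the array labelled 44k, and leaving out each array. The low run's alternatives, both stretches of extended class I and the average of the arrays on 1 slide were added after seeing the data. Slide as a random block was not run, because limma estimates no correlation from 5 slides over 6 arrays.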

Additional observations from a re-analysis of the deposited data

Results flagged for a closer look

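The excess of the region over the rest of the genome was 0.9584 on the U2OS manual 2 array, apart from the other 3 U2OS arrays (1.05 to 1.07). Its gap to the nearest of them, divided by the range of the 4, was 0.851, above Dixon's 95% critical value of 0.829. Chance flags about 1 in 20 such groups, and 8 values were looked at.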

How the results depend on the processing

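Extended class I was earlier in K562, and the low run of class II below its flanks, under every alternative run. The low run was found in the main values and kept at the same positions in its alternatives. Its place below the flanks was therefore largely set by that choice. The class III minus class II step over 6 arrays turned to −0.018 with no background correction, −0.012 with loess and −0.0055 without dim probes. The class III difference between the lines was −0.17 to −0.18 with normexp, loess or no background correction and, with an array left out, −0.66 to −0.18. The class I difference between the lines turned to 0.030 with loess. With an array left out it ran from −0.35 to 0.050, the latter without the old-sorting K562 array. The class II difference turned to 0.081 with loess, 0.0098 without dim probes and 0.035 with mean centring. With an array left out it ran from −0.15 to 0.024, the latter without the manual 1 array. The extended class II difference turned to 0.038 without dim probes and was −0.0064 with mean centring. The mean position of the single division in U2OS moved to 32650921 with no background correction and to 32805577 without dim probes. The low run minus its flanks was −0.70 with normexp, −0.57 with no background correction and −0.72 with loess. The causes were not tested.

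Windows called between the lines numbered 3 with normexp, against 9.9% of all windows. There were 3 with no background correction, 4 of 25 windows without dim probes and 3 of 20 windows of 250 kb. They numbered 6 to 8 with an array left out, and without the new-sorting array 2 of the 8 were later in K562. Windows called between automated and manual U2OS numbered 14 with normexp and 17 with loess, against 61.2% and 61.1% of all windows. There were 9 with no background correction and 5 of 27 windows without dim probes. Scaling gave 0, at least 5 probes gave 3 and a difference of at least 1 gave 0. For these other settings no share of all windows is given, so their counts are not a result about the region. A fit with the title's number as replicate block called 2 windows. Manual and automated arrays of equal number deviated from their group means with a correlation of −0.0148 over all windows, so the number was not taken as a pairing.

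The excess of the region over the genome was 0.65 with normexp, 0.54 with no background correction, 0.66 with loess and 0.61 without dim probes. With an array left out it was 1.02 to 1.17, and 5 arrays cannot give a p below 0.0625. Of 200 alternative values, 163 were labelled as unchanged. Outside the window counts, this meant an unchanged direction and side of the threshold or a move of less than 1 SD. For sub-region and step differences between the lines the side was fixed beforehand, because 2 arrays against 4 cannot give a permutation p below 0.133. For window counts the label ignored direction. The 1 window called for handling was later on the automated arrays in the main setting, and the 1 called with mean centring was earlier. The count of 163 is therefore no measure of robustness. Dim late signals limit how early a probe can read, and dim early signals how late.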
